A study of Glycine max with 36 samples.

Results

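The NAC genes of soybean (Glycine max) were followed as sources or targets of small RNAs in 36 libraries. A gene was taken as a NAC gene when its protein annotation named the No apical meristem (NAM) domain, or when its best Arabidopsis match was described as a NAC domain protein. Of 52872 genes, each with 1 transcript model, 136 met both criteria, 35 had the domain annotation alone and 1, Glyma.10G197600, had the Arabidopsis description alone, which together is 0.325% of the genes. A hit is a read aligned to the transcript model, on the sense strand (same letters as the mRNA) or on the antisense strand (complementary to it). Levels are given as RPM, the hits of both strands per 1e+06 reads of the library, and every group is described from these bulk tissues, in which fewer cells of a type and less small RNA per cell cannot be told apart.

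NAC proteins are plant transcription factors with a shared DNA-binding domain, named after NAM, ATAF and CUC. In Arabidopsis they separate organs at the shoot apex, build secondary walls in vessels and fibres, shape the root cap and the seed coat, and act in drought responses and leaf senescence. Several NAC mRNAs are cut by the microRNA miR164, and a microRNA complementary to its target counts here as an antisense hit. Roles below are those of the Arabidopsis match and are background, since the soybean genes themselves were not tested for function. No transcript or genome sequence paired with these gene identifiers was used here, so no sequence, genome interval or miR164 site is printed. The chromosome of each gene is the number before the G in its identifier.

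The study asked where small RNAs of the chalcone synthase (CHS) genes, which set seed colour through the I locus, are made. Seed coats came from Williams (i-i R T, yellow coat with black hilum) at 100 to 200, 200 to 300 and 400 to 500 mg fresh seed weight, 1 library each, and from Richland (I R t, yellow) and T157 (i R t, imperfect black), each with 3 libraries of 5 to 6 mg seeds and 1 of 10 to 25 mg. Single seed coat libraries came from Williams 44 (i R T, black, 50 to 75 mg), Clark 63 (i-i R T, 50 to 100 mg) and Clark mi (i-i R t, minute hilum with a defective coat, 50 to 100 mg), which makes 14 immature seed coat libraries. Williams also gave a dry seed coat and a dry cotyledon, an immature cotyledon (200 to 300 mg), 2 embryo axes (200 to 300 and 300 to 400 mg), cotyledons of seedlings at 7 stages, the first after 48 hr of imbibition, and a leaf of 10 days. Clark lines, all i-i R T and yellow with black hilum, with standard, five-foliate (Lf1) or glabrous (P1) plants gave 3 vegetative buds (5 to 7 weeks), 4 adult shoot tips of 1 cm, and 2 tips of 1-month plants, the last from five-foliate and glabrous plants.

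Libraries held 9.50 to 58.5 M reads (1 M is 1e+06), so 3 hits, the limit that a count of 0 allows, equalled 0.0513 to 0.316 RPM. Apart from 1 library, 18760 to 34200 genes had a hit per library. The stage 2 seedling cotyledon library had hits on 1122 genes and 2 NAC hits in all, and the calls and list counts that use it are also given without it. CHS7 and CHS8, which mark seed coats with I or i-i, summed to 170 to 390 RPM in Richland 5 to 6 mg coats, 9.84 to 16.7 RPM in T157, 121 RPM in Williams 44, which also carries i, and 1024 to 11518 RPM in Williams immature coats. Light harvesting genes (44 genes) were highest in leaf at 112 RPM. The seed storage list (299 genes) did not set seed parts apart, with 142 to 733 RPM in immature seed coats and 75.3 to 212 RPM in adult shoot tips.

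Small RNA hits on NAC genes were a small share of all hits, and a handful of members held most of them. The family collected 404742 hits, 0.0428% of the hits of all genes, and 15 members had no hit in any library. A member had a median of 281.5 hits over all libraries, against 146 for all genes, and 52 members had fewer than 100. The leading gene held 17.1% of the family's hits, the leading 5 held 54.9%, and the leading 20 held 84.1%. Genes without a hit and the shares of leading genes were not computed for all genes, so neither is shown to be particular to the family. The summed family level ran from 321 to 917 RPM in immature seed coats (median 686) and stood at 874 RPM in the dry seed coat, 865 in leaf, and 767 and 838 in the embryo axes. In leaf 788 RPM came from Glyma.13G280000 and Glyma.12G221400, whose antisense counts were near-equal there, so that level may count the same reads on both. Vegetative buds held 103 to 286 RPM, adult shoot tips 68.997 to 309.6, and seedling cotyledons other than stage 2 147 to 451. In RPM, all buds and adult tips lay below the lowest immature seed coat, while the cotyledons overlapped with the coats. As a share of the hits of all genes, buds and adult tips also overlapped with the coats. The Williams 44 coat held 0.0156%, below the standard bud (0.0287%) and the glabrous adult tip (0.0276%). The other immature coats held 0.0286% or more.

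**Figure D1:**
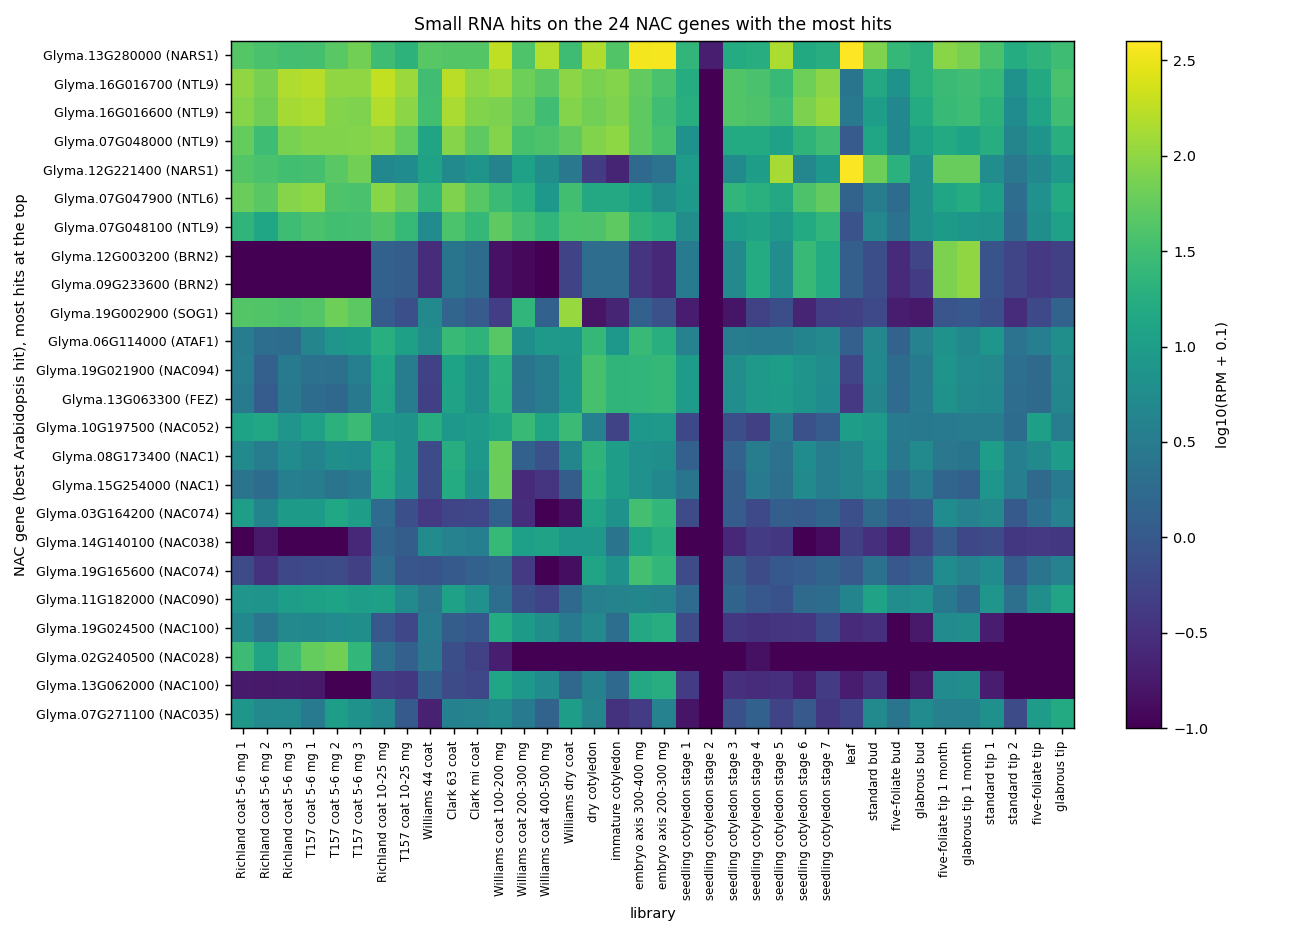
Heat map of the 24 NAC genes with the most hits (rows) in the 36 libraries (columns, grouped by tissue), coloured by log10(RPM + 0.1). The membrane-tethered genes on chromosomes 7 and 16 sum to 105 RPM (Williams 44) to 563 RPM in the immature seed coat columns, while Glyma.12G221400 peaks in the leaf at 388 RPM and the stage 5 cotyledon at 136 RPM.

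Of the family's hits, 63.5% were antisense, against 68.2% for all genes, and the median over libraries was 71.1%. The pooled value hides genes of opposite kinds. Among the 120 members with at least 100 hits, 32 (26.7%) were over 90% antisense and 45 (37.5%) were under 10%; over all genes with as many hits these shares were 26.3% and 33.2%. The split of the family lay near that of all genes. Stress and senescence NAC genes were mostly sense (6.04% antisense), CUC3-type genes nearly all sense (0.304%), and miR164-type genes mostly antisense (83.5%). These are pooled hits. The stress share rests partly on Glyma.06G114000, and the miR164-type share partly on Glyma.08G173400 and Glyma.15G254000. Counts of these genes nearly equal those of other genes, as described below.

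**Figure D2:**
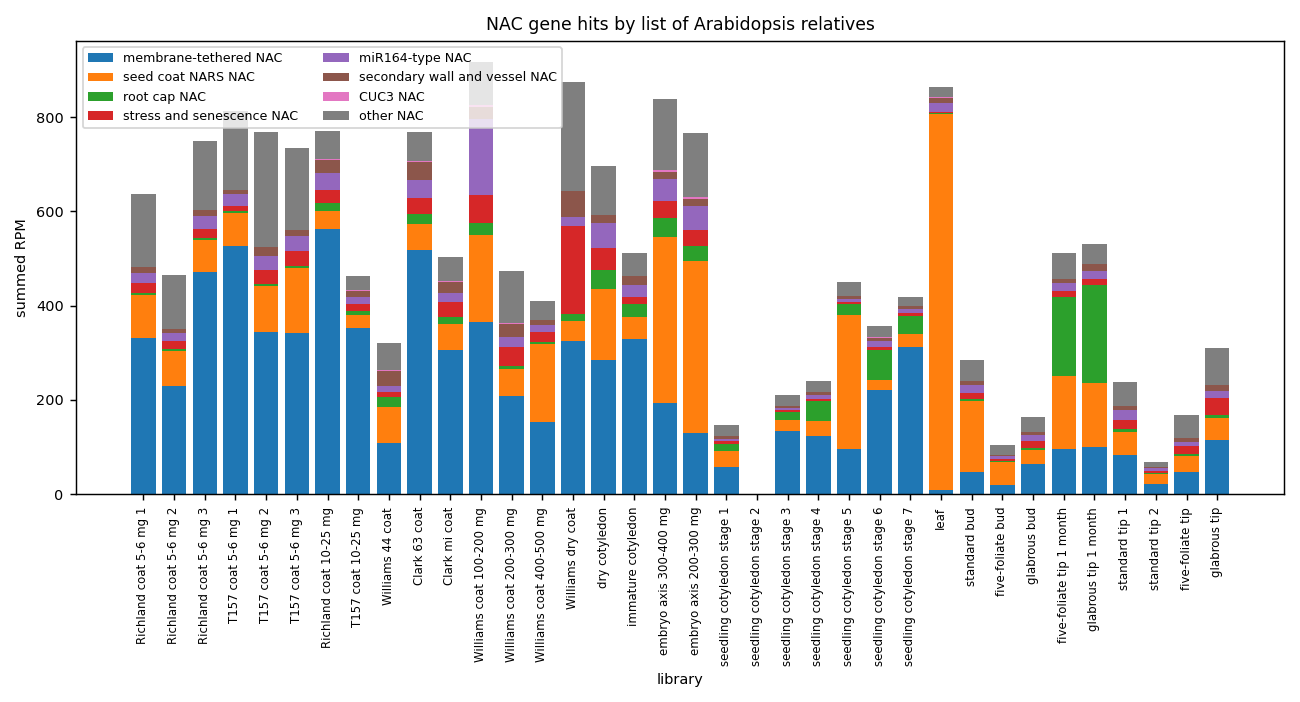
Stacked bars of summed RPM per library for 8 groups of NAC genes, sorted by the role of the Arabidopsis match. The 5 leading membrane-tethered genes make up 32.6 to 76.1% of the immature seed coat bars. The seed coat NARS group makes up 798 RPM of the leaf bar, mostly from a pair of genes with near-equal antisense counts there. The root cap group sums to 168 and 207 RPM in the 1-month tips, mostly from a pair of genes with equal sense counts.

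The largest block was a set of membrane-tethered NAC genes. Such factors are held at a membrane by a C-terminal anchor and are released by cleavage; NTL6 and NTL9 act in cold and immune responses in Arabidopsis. The list has 15 members, which held 41.7% of the family's hits, and 5 of them held 41.3%: Glyma.07G047900 (NTL6-type), Glyma.07G048000, Glyma.07G048100, Glyma.16G016600 and Glyma.16G016700 (all NTL9-type). Their identifiers run consecutively on chromosomes 7 and 16. Per kb of transcript, the mean level was highest for Glyma.16G016700 at 29.1 RPM per kb. The others followed with 15.5 (Glyma.07G047900), 15.4 (Glyma.07G048000), 13.8 (Glyma.16G016600) and 11.02 RPM per kb (Glyma.07G048100). The antisense hits of Glyma.16G016600 and Glyma.16G016700 matched within 10% library by library (37376 and 36896 hits), so sums over the 5 genes may count the same reads on each of this pair.

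The 5 genes together reached their highest levels in seed coats, over a wide range, and their lowest level outside stage 2 in leaf. Their summed level was 330, 229.7 and 469.6 RPM in the Richland 5 to 6 mg coats and 525.5, 342 and 338 RPM in those of T157. It was 563 RPM in the Richland and 352 RPM in the T157 coat of 10 to 25 mg, 518 in Clark 63, 305 in Clark mi and 105 in Williams 44. Williams coats held 364, 207 and 151 RPM in order of seed weight, and the dry coat 304 RPM. Richland and T157 overlapped, and the black-coated Williams 44 held the lowest value of the 14 immature coats.

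Cotyledons of immature and dry seeds reached 329 and 282 RPM for the same 5 genes, within the range of the seed coats. Seedling cotyledons held 56.0 RPM at stage 1, then 134, 123, 93.7, 219 and 311 RPM at stages 3 to 7, with 0 hits at stage 2. Embryo axes had 191 and 128 RPM, the 1-month tips 94.2 and 98.0, adult tips 20.4 to 113.9, and buds 20.1 to 62.5. The leaf had 8.20 RPM, the lowest value outside stage 2, and there the 5 genes made up 0.948% of the family's hits, against 32.6 to 76.1% in immature seed coats. Most hits were antisense, 76.4% over all libraries. The antisense share of the 5 genes was 51.1 to 59.9% in Williams coats, 80.8 to 83.4% in the 5 coats of 10 to 100 mg and 85.8 to 93.7% in seedling cotyledons. Pooled over libraries it ran from 59.7% for Glyma.07G048100 to 95.7% for Glyma.07G047900, so neighbours on chromosome 7 were all mostly antisense but differed in the size of that share.

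The next block was the seed coat NARS list, 10 genes matched to NARS1 and NARS2, which act in Arabidopsis seed coat and embryo development. It held 23.96% of the family's hits, nearly all on the NARS1-type genes Glyma.13G280000 (69390 hits, 46.0% antisense) and Glyma.12G221400 (24255 hits, 99.2% antisense). Glyma.13G280000 was the top member, with a mean of 77.6 RPM and 42.2 RPM per kb, and had hits in all 36 libraries. Its strand switched with the tissue. In the 2 embryo axes it had 336 and 350 RPM of sense hits with 14.3 and 10.2 RPM antisense, and the dry cotyledon had 133.1 RPM sense with 14.0 antisense. Williams coats of 100 to 200 and 400 to 500 mg had 173.2 and 152.2 RPM sense with 6.48 and 7.34 antisense. The Williams coat of 200 to 300 mg departed from its neighbours with 17.8 RPM sense and 23.5 antisense.

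In the leaf Glyma.13G280000 was almost wholly antisense, with 400.0 RPM against 0.345 RPM sense. The 6 seed coats of 5 to 6 mg had 33.0 to 68.7 RPM antisense and at most 0.0774 RPM sense. The stage 5 seedling cotyledon had 138.8 RPM antisense and 4.08 sense, while the other stages with data had 9.52 to 19.03 RPM antisense. The standard bud had 77.6 RPM antisense and 2.32 sense, and the five-foliate and glabrous 1-month tips had 66.0 and 64.2 RPM antisense with 26.2 and 9.12 sense. Sense hits prevailed in the axes, the dry cotyledon and the Williams coats of 100 to 200 and 400 to 500 mg. They also did in the immature cotyledon (35.6 RPM sense, 6.89 antisense) and the dry seed coat (22.5 sense, 7.41 antisense). Antisense hits prevailed in every other library apart from stage 2, among them the leaf, the youngest coats, the standard bud, the 1-month tips and stage 5.

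Glyma.12G221400 had 388 RPM in leaf, 136 RPM at stage 5 and 32.9 to 68.5 RPM in the 5 to 6 mg coats, 64.4 RPM in the standard bud, and 57.9 and 58.2 RPM in the 1-month tips, but 0.339 RPM in the dry cotyledon and 1.60 and 2.22 RPM in the axes. Its antisense hits equalled 0.991 to 1 times those of Glyma.13G280000 in the 6 coats of 5 to 6 mg, 0.969 times in leaf and 0.981 times at stage 5. In the coats of 10 to 100 mg this ratio was 0.172 to 0.288, and in adult shoot tips 0.174 to 0.296. It reached 0.9 or more in 9 libraries. Where the ratio is near 1, reads of the pair may be the same reads counted on each gene, since reads were not traced between genes, and their levels are then not separate measurements.

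**Figure D3:**
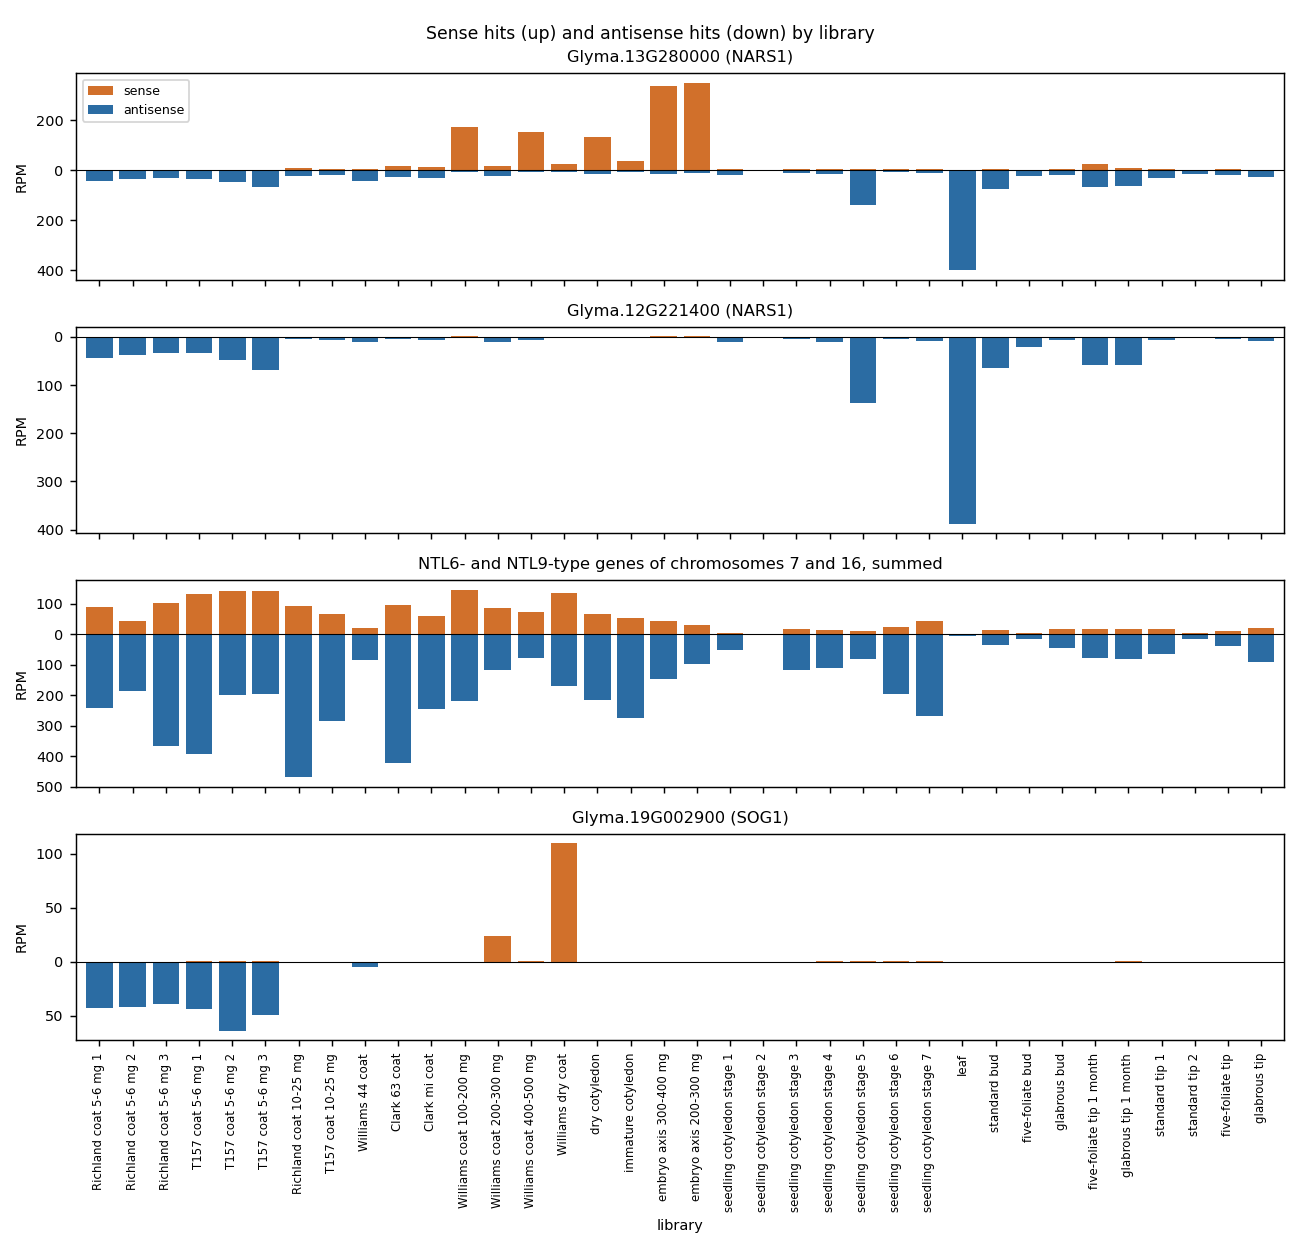
Sense RPM (upward) and antisense RPM (downward) per library for Glyma.13G280000, Glyma.12G221400, the 5 membrane-tethered genes summed, and the SOG1-type gene Glyma.19G002900. Glyma.13G280000 is sense in the axes at 336 and 350 RPM and antisense in leaf at 400.0 RPM, and Glyma.19G002900 is antisense in the 5 to 6 mg coats and sense in the dry coat at 109.8 RPM.

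The miR164-type list (14 genes matched to NAC1, CUC1, CUC2, ORE1, NAC079 or NAC100) held 4.82% of the family's hits. A NAC1-type pair, named for the factor that acts in lateral root formation, led it: Glyma.08G173400 had 4810 antisense and 873 sense hits, and Glyma.15G254000 had 4856 antisense and 2 sense hits. Both peaked in the Williams coat of 100 to 200 mg, at 62.9 and 61.0 RPM, against 1.23 and 0.175 RPM at 200 to 300 mg and 0.691 and 0.259 at 400 to 500 mg. That library held 163 RPM for the whole list, 17.8% of its NAC hits, while the median share over libraries was 3.79%. All other seed coats held 12.2 to 38.3 RPM. The antisense hits of the pair also matched, within 10% library by library, the sense hits of an undescribed gene, Glyma.02G017301 (4895 hits), so the 3 genes may count the same reads. The presence of miR164 itself was not tested.

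NAC100-type genes on the same list were about as high in the axes as in that seed coat. Glyma.13G062000 and Glyma.19G024500 had 13.3 and 16.2 RPM in the Williams coat of 100 to 200 mg, 14.6 and 17.5 RPM each in the 2 embryo axes, 5.404 and 6.12 RPM in the 1-month tips and at most 0.0951 RPM in adult tips. Their sense totals were equal at 802 hits each, and their levels in axes and tips were the same to 3 digits. They parted in the 5 to 6 mg seed coats, where Glyma.19G024500 had 2.51 to 6.11 RPM and Glyma.13G062000 at most 0.0838.

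The root cap list (9 genes matched to SMB, BRN1, BRN2 and FEZ, which set cell division and maturation in the Arabidopsis root cap) held 6.88% of the hits. Its BRN2-type pair, Glyma.12G003200 and Glyma.09G233600, had 9048 sense hits each and at most 4 antisense hits. Their sense hits matched within 10% library by library, so the list's sum may count the same reads on each of them. Levels of Glyma.12G003200 were 78.5 and 100.2 RPM in the five-foliate and glabrous 1-month tips, but 0.299 to 0.761 RPM in the adult tips. Seedling cotyledons had 2.82, 4.84, 16.5, 5.65, 27.6 and 16.3 RPM at stage 1 and stages 3 to 7. All other libraries were at or below 2.43 RPM, and the 6 coats of 5 to 6 mg were at 0. The standard line has no 1-month library, so tip age and line can be compared only within the mutants.

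The FEZ-type Glyma.13G063300 was of the opposite strand, with 7255 antisense and 38 sense hits. It had 35.3 RPM in the dry cotyledon, 25.2 and 23.5 RPM in the axes, 22.6 RPM in the immature cotyledon and 0.302 RPM in leaf. NAC094-type Glyma.19G021900 showed nearly the same counts (7315 antisense hits) and the same order of tissues, with 35.4 RPM in the dry cotyledon. A second FEZ-type gene, Glyma.18G119300, had 492 antisense hits and no sense hit.

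Stress and senescence NAC genes (24 genes matched to ATAF1, NAP, RD26, NAC3 and their relatives) were marked by the dry seed coat, where the list summed to 188 RPM. Immature seed coats held 10.9 to 59.5 RPM, seedling cotyledons other than stage 2 held 4.74 to 7.36 and the leaf 1.99 RPM. In the dry coat the ATAF1-type Glyma.04G208300 had 35.1 RPM, the NAC3-type Glyma.13G279900 and Glyma.12G221500 had 31.0 and 25.7, and the RD26-type Glyma.12G149100 had 17.2 RPM. Glyma.04G208300 did not pass 1.66 RPM in any other library. The other stress genes overlapped less sharply, with Glyma.12G149100 at 11.9 RPM and Glyma.13G279900 at 6.12 RPM in their highest immature Williams coat. These 4 genes were 1.89 to 6.38% antisense, and the dry coat is a single library. ATAF1-type Glyma.06G114000, with 7695 sense hits and 2 antisense, was instead highest in a Williams immature coat at 46.5 RPM and in the axes at 18.6 and 27.7 RPM. Its sense hits matched those of 14 strands of other genes within 10%, so it cannot be read as the level of that gene.

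Secondary wall and vessel NAC genes (40 genes, matched to VND, NST and SND factors and to their inhibitors VNI2 and XND1) held 3.09% of the hits and reached their highest sum, 55.2 RPM, in the dry seed coat. The SND2-type Glyma.06G288500, a relative of wall thickening factors, made up 24.2 RPM of it. That gene had 1.57 to 2.77 RPM in the 5 to 6 mg coats, 0.703 to 3.23 in Williams immature coats, and no hit in any seedling cotyledon, axis, adult tip or leaf. XND1-type Glyma.08G181100, matched to an inhibitor of xylem differentiation, had 577 antisense hits and no sense hit. The CUC3 list, for the factor that sets organ boundaries, had 657 hits on 2 genes and was highest in the axes at 4.12 and 4.33 RPM.

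Among the 58 other members, SOG1-type Glyma.19G002900 changed strand between seed coats. SOG1 is the plant regulator of the DNA damage response. The gene had 39.7 to 64.1 RPM of antisense hits in the 6 coats of 5 to 6 mg, with at most 0.588 RPM sense. The dry seed coat had 109.8 RPM sense and 0 antisense, and the Williams coat of 200 to 300 mg had 23.3 RPM sense. All other libraries held at most 5.15 RPM in total. NAC028-type Glyma.02G240500 was found almost only in the youngest coats: Richland had 29.4, 12.5 and 28.1 RPM and T157 55.4, 67.5 and 24.3. Coats of 10 to 100 mg had 0.394 to 2.63 RPM, the gene had hits in 13 libraries, and its median was 0. NAC038-type Glyma.14G140100, with 3323 antisense hits and no sense hit, was lowest among immature coats at 5 to 6 mg, with at most 0.155 RPM. Coats of 10 to 100 mg had 1.07 to 5.45 RPM, and Williams coats had 26.1, 10.7 and 11.7 RPM in order of weight. Within Williams the level thus did not rise with weight. The 5 to 6 mg coats came from Richland and T157, so line and weight cannot be told apart across these coats.

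Several members cannot be told apart from other genes by their counts. Of 94 members with at least 200 hits on a strand, 34 had a partner gene whose hits on some strand, compared library by library, differed in sum by at most 10% of the larger total. The sense hits of Glyma.08G173400 had 48 such partners and those of Glyma.06G114000 had 14. Unique hits made up 96.6% of the family's total, but the rule for a unique hit is not given in the sources used here. Overlapping genes on opposite strands were not examined.

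Richland carries the dominant I allele and T157 the recessive i, and their 5 to 6 mg seed coats were compared with 3 libraries each. The test called few NAC genes: of 49 members tested, 1 was higher in Richland and 0 lower, where 0.65% of all 10761 genes tested were higher and 0.474% lower. The median log2 difference was -0.07 for members and -0.01 for all genes. Groups did not overlap for 10 of 49 members, against 14.3% of all genes tested.

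The called gene was ATAF1-type Glyma.04G249000. It had 3.43, 1.65 and 5.53 RPM in Richland and 0.312, 0.504 and 0.619 RPM in T157, and every Richland library was above every T157 library. The log2 difference was 3.15 ± 0.49 (SE), with an adjusted p of 2.3e-06 in edgeR's quasi-likelihood test with Benjamini-Hochberg adjustment. The difference lay in the antisense hits, at 2.93, 1.57 and 5.28 RPM in Richland and 0.0781, 0.252 and 0.0774 RPM in T157. This rests on 128 hits in Richland and 18 in T157. Beyond these coats the gene reached 6.98 RPM in the Williams dry cotyledon and 4.68 RPM in the dry seed coat, where 4.61 RPM were sense.

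Other leading genes did not pass. ATAF1-type Glyma.06G114000 had 3.26, 1.88 and 1.76 RPM in Richland and 4.22, 7.48 and 9.13 RPM in T157, without overlap, and a log2 difference of -1.24 ± 0.40 (edgeR adjusted p = 0.159). NAC028-type Glyma.02G240500 differed by -0.83 ± 0.37 on the log2 scale (edgeR adjusted p = 0.513), and membrane-tethered Glyma.16G016700 by 0.05 ± 0.37 (edgeR adjusted p = 0.990). Leaving out any single library kept the count at 1.

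Williams immature seed coats (3 weights) were compared with seedling cotyledons (7 stages) to ask which NAC small RNAs separate the tissues. Libraries within a group differ in age, so age is part of the spread. Of 57 members tested, 13 were higher in the seed coat and 11 lower, against 24.5% higher and 23% lower among 16669 genes tested. Without the stage 2 library 13 were higher and 17 lower, against 28.7% and 27% of 16878 genes. All 24 calls were kept, and the 6 added lower genes were Glyma.07G047900, Glyma.16G016600, Glyma.12G221400, Glyma.13G063300, Glyma.19G021900 and VND1-type Glyma.16G130200. Members thus rose and fell about as often as genes in general. CHS7 and CHS8 were at 1024 to 11518 RPM in the coats and 0 to 8.94 in the cotyledons, light harvesting genes at 8.98 to 25.0 and 0 to 41.0 RPM, and the part of tissue makeup in the NAC values was not tested.

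Vessel and wall NAC genes were mostly higher in the seed coat, 6 of 11 tested, with 1 lower (2 without stage 2) and a median log2 difference of 1.69 against 0.02 for all genes. SND2-type Glyma.06G288500 had 0.703, 0.777 and 3.23 RPM in the coats and no hit in the 7 cotyledons. VND4-type Glyma.17G138100 had 1.66, 0.691 and 1.75 RPM and no hit in the cotyledons. Pooled over the group, with the cotyledons at the floor of 3 counts, these were at least 147-fold and at least 101.7-fold higher (at least 132-fold and 91.1-fold without stage 2), with edgeR adjusted p of 4.54e-05 and 3e-05. The other 4 were VND1-type Glyma.02G050100, VND4-type Glyma.12G004900 and SND2-type Glyma.13G234700 and Glyma.15G078300, with log2 differences of 1.69 to 1.90. Their calls were less firm: Glyma.13G234700 (1.02) was not called without the 200 to 300 mg coat, Glyma.15G078300 (1.59) without the 100 to 200 mg coat, and Glyma.12G004900 without the 100 to 200 mg coat (1.76) or the 400 to 500 mg coat (1.95). The gene lower in both fits was Glyma.17G185000, matched to VNI2, a repressor of the vessel factor VND7, at -3.06 ± 0.82.

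Of the miR164-type list, 3 of 7 tested were higher and none lower, and all 3 were NAC100-type. Glyma.13G062000 had 13.3, 8.24 and 5.44 RPM in coats of rising weight and at most 0.320 RPM in the cotyledons, a log2 difference of 3.87 ± 0.56 (edgeR adjusted p = 1.61e-05). Glyma.19G024500 differed by 3.42 ± 0.55 (edgeR adjusted p = 4.6e-05) and Glyma.17G101500 by 1.84 ± 0.54 (edgeR adjusted p = 0.00736). Coats and cotyledons did not overlap for these genes, though the first pair shares its sense counts.

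The other 4 higher genes were NAC038-type Glyma.14G140100 (5.48 ± 0.80), NAC050-type Glyma.20G192300 (3.51 ± 0.83), NAC052-type Glyma.10G197500 (2.95 ± 0.65) and SOG1-type Glyma.19G002900 (3.62 ± 0.87). Glyma.14G140100 had at most 0.328 RPM in any cotyledon. Glyma.10G197500 had 12.5, 27.7 and 12.7 RPM in coats of rising weight and at most 2.65 in the cotyledons. The SOG1-type gene overlapped between groups, and without the 200 to 300 mg coat its difference was 0.48 and was not called.

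Members lower in the seed coat were weakly covered, 9 of 11 with means under 2 RPM in both groups. None could stand clear of the cotyledons while stage 2 was included, since that library was at 0 RPM for them. Without stage 2, 6 of 17 did, for which no share over all genes is given. With stage 2 and in either direction, groups did not overlap for 20 of 57 members, against 41.8% of 16669 genes tested. The root cap list had 0 higher and 2 lower of 5 tested, the BRN2-type pair. Without stage 2 it had 3 lower, when FEZ-type Glyma.13G063300 was added (-1.40 ± 0.53, edgeR adjusted p = 0.0403). Mean antisense RPM of Glyma.13G063300 was 8.36 in the coats and 7.59 in the cotyledons without stage 2, so its call rests on the TMM scaling. The same holds for 2 more genes added without stage 2. Glyma.19G021900 had antisense means of 8.38 and 7.64 RPM, and Glyma.16G130200 sense means of 2.32 and 2.08 RPM. Glyma.12G003200 had 0.0502, 0 and 0.0195 RPM in coats of 100 to 200, 400 to 500 and 200 to 300 mg, and pooled levels of 2 and 1933 hits gave a ratio of 0.00241 (95% counting interval 0.000292 to 0.00871; 0.00216 without stage 2). The log2 difference was -9.73 ± 1.54 (edgeR adjusted p = 4.01e-05), or -9.88 ± 1.09 without stage 2. NAC061-type Glyma.19G195800 had 2 against 301 hits, a ratio of 0.0155 (95% counting interval 0.00186 to 0.0564; 0.0139 without stage 2). Both NAC075-type genes tested, Glyma.01G005500 (-5.03 ± 0.90) and Glyma.07G126500 (-5.54 ± 1.06), and NAC090-type Glyma.03G197900 (-4.16 ± 0.83) were also lower. The NARS1-type Glyma.06G249100 was called at -4.39 ± 1.27, as 1 of 5 tested on its list, and Glyma.12G221400 was called as well without stage 2 (-3.24 ± 1.25, edgeR adjusted p = 0.0428). For Glyma.06G249100 the groups overlapped with or without stage 2. Its antisense level was 6.21 RPM at stage 5, 0.0873 to 1.78 at the other stages with data and 0.0502 to 0.156 in the coats. For Glyma.12G221400 the groups overlapped, and the cotyledon mean is carried by the stage 5 library at 136 RPM antisense. The other stages with data had 4.46 to 10.0 RPM antisense and the coats 2.36 to 11.2.

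The membrane-tethered list had 0 of 6 called, with a median of -0.07. Without stage 2, 2 of the 6 were called lower in the seed coat, Glyma.07G047900 at -1.83 ± 0.52 (edgeR adjusted p = 0.0101) and Glyma.16G016600 at -1.23 ± 0.48 (edgeR adjusted p = 0.046), and the median was -0.18. Mean RPM of Glyma.16G016600 was 54.7 in the coats and 52.7 in the cotyledons without stage 2, so that its call rests on the TMM scaling. Glyma.16G016700 averaged 77.4 ± 38.2 RPM (SD, n = 3) in the coats and 40.3 ± 31.2 RPM (SD, n = 7) in the cotyledons (47.0 ± 28.1 RPM, SD, n = 6, without stage 2), for a log2 difference of -0.46 ± 1.04 (-0.58 ± 0.46 without stage 2), opposite in sign to the RPM means. Stress NAC genes had 0 of 5 called with or without stage 2, and a median of 1.05.

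The sign of a difference depends on the scaling here. TMM scaling sets the median gene near 0, at 0.02. When libraries were scaled by their reads alone the median of all genes was 1.57 and of members 1.88. With that scaling 22 members were higher and 5 lower, for which no share called over all genes is given. Of the 24 calls, 18 were kept, and the lower genes kept were Glyma.12G003200, Glyma.09G233600, Glyma.19G195800, Glyma.01G005500 and Glyma.07G126500. Of the called members, 5 had a partner gene with near-equal counts.

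Clark vegetative buds (3 libraries) were compared with adult shoot tips (4 libraries) across the standard, five-foliate and glabrous lines, with line as a term. Of 41 members tested, 1 was higher in buds and 0 lower, where 2.19% of 14015 genes were higher and 0.271% lower. NARS1-type Glyma.12G221400 had 64.4 RPM in the standard bud, 20.2 in the five-foliate and 6.64 in the glabrous bud, and 5.71, 2.71, 4.72 and 8.50 RPM in the tips. The glabrous bud lay below the glabrous tip, so the groups overlapped. The log2 difference was 2.78 ± 0.55 (edgeR adjusted p = 0.0157), and the call was lost without the standard bud (adjusted p = 0.155), the five-foliate bud (0.378), the five-foliate tip (0.195) or the first standard tip (0.0998). It was also lost with library reads in place of TMM (adjusted p = 0.216). Light harvesting genes summed to 32.7 to 73.5 RPM in the buds and 22.1 to 36.7 in the tips, and their part in the difference was not tested.

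Five-foliate and glabrous plants were each compared with standard plants over the 9 Clark libraries, using the same standard libraries for both. No member passed among 41 tested, nor did any gene of the 14015 (0% called). In the five-foliate comparison 2 members had an unadjusted p under 0.05, Glyma.15G254000 at -1.10 ± 0.46 and Glyma.09G233600 at -1.18 ± 0.54, against 845 of the 14015 genes, and the smallest edgeR adjusted p was 0.668. In the glabrous comparison 16 members and 2404 of the 14015 genes had one, and the smallest edgeR adjusted p was 0.279. They included 4 of the 5 membrane-tethered and 5 of the 6 stress genes tested, some of which share near-equal counts with each other or with other genes, as Glyma.16G016600 does with Glyma.16G016700, and so are not separate measurements. The membrane-tethered genes were Glyma.07G047900 at 1.17 ± 0.38, Glyma.07G048100 at 0.95 ± 0.38, Glyma.16G016600 at 0.83 ± 0.31 and Glyma.16G016700 at 0.76 ± 0.30. DESeq2 called 0 members in either comparison. Standard plants had 3 libraries and the mutants 3 each, which limits what these fits could detect.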

How the data were processed

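Small RNA was sequenced from total RNA in 36 libraries of hand-separated soybean tissues, prepared with either of 2 kits on either of 2 sequencers that the labels do not assign per library, so no kit or sequencer term could be fitted. The authors deposited, per the file headers, raw counts of hits for 86256 transcript models, as total and unique hits per strand, and a second table with the reads of each library and RPM, hits per 1000000 reads, of CHS genes. The submitters' processing notes name Bowtie 1 as aligner; its mismatches, the read sizes, the annotation version and the rule for unique hits were not given in the sources used here. Each count mixes microRNAs, small interfering RNAs and mRNA fragments, since read lengths were not separated.

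From the deposited counts, the lowest splice form of each gene was kept, sense and antisense total hits were summed and RPM was computed from the library reads in the deposited table. Comparisons used edgeR 4.0.16 in R 4.3.3 (TMM, filterByExpr with a minimum count of 10 and total of 15, quasi-likelihood F test, Benjamini-Hochberg adjustment over all genes tested, threshold 0.05), and were checked on simulated counts. The SE of a log2 difference was not taken from the model but derived from the test. It is the absolute log2 difference divided by the square root of the F statistic. The Clark fit had line and tissue terms over 9 libraries, with the 1-month tips as their own tissue. DESeq2 1.42.0 was an alternative. Others were size factors, library reads in place of TMM, no filter, each strand, unique hits, merged identical genes and leaving out each library. Tables and figures used Python 3.11.15, numpy 2.4.6, pandas 2.3.3, scipy 1.17.1 and matplotlib 3.10.9.

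Genes were named by rule: the 12 with the highest mean RPM, per comparison up to 6 called genes per direction with non-overlapping groups and at least 1 RPM, the 2 smallest p per list, and the 5 highest by antisense hits and by antisense share. Other genes named were chosen after their values were seen. The members and the lists, set by Arabidopsis match, were chosen with earlier results of these data known. The labels do not say that libraries of a group came from separate plants, so p-values measure only the spread between libraries. The replicate numbers of Richland and T157 did not pair the libraries. Intervals and floors (3 counts; 95% exact binomial for a ratio of 2 counts) cover counting error only.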

Additional observations from a re-analysis of the deposited data

Results flagged for a closer look

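In the 7 seedling cotyledon libraries, 21 summed lists and genes were examined for a sample standing far from the rest, and 8 met the criterion. Chance gives about 1 in 20 for a single item, but these items are not independent. Lists include the genes, the NARS1-type pair had near-equal antisense counts at stage 5, and the stage 2 library had 2 NAC hits in all. The 8 therefore cannot be set against that rate. The gap of the extreme library to its neighbour, as a share of the range, was 0.882 for the seed coat NARS list, 0.836 for Glyma.13G280000, 0.926 for Glyma.12G221400 and 0.620 for Glyma.10G197500. Stage 5 was highest in these 4, at 286, 142.9, 136 and 2.65 RPM against 33.9, 23.5, 10.1 and 1.01 RPM in the next library. The gap share was 0.641 for the other NAC genes summed, 0.644 for the stress and senescence list, 0.578 for Glyma.06G114000 and 0.569 for Glyma.19G021900. In these 4 the stage 2 library stood apart, at 0 RPM.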

How the results depend on the processing

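None of the called genes followed under the alternatives changed direction; members that were not called were not followed, and the scaling turned the balance of the Williams calls from 13 higher and 11 lower to 22 and 5. Without the filter on low counts the called members were 2 for Richland against T157 (adding Glyma.17G138100), 46 for Williams seed coats against cotyledons and 2 for buds against tips, and with sense hits alone they were 0, 15 and 0. No share called over all genes is given for these alternatives or for the library-read scaling. Their member counts are therefore not set against genes in general. With library reads in place of TMM the bud count was 0 (adjusted p of Glyma.12G221400 0.216). Leaving out single libraries gave 1 to 1 for Richland against T157, 23 to 30 for Williams, 0 to 2 for buds, and 0 to 0 for both Clark mutants. Of the values of single named genes under alternatives, 412 kept their side of the threshold and 24 did not. Called genes without a value under an alternative did not enter these numbers. Of the 24 Williams calls, 14 entered with antisense hits alone and 11 with sense hits alone. With the replicate block, the Richland and T157 fit called 1 member; same-numbered libraries did not deviate together (correlations -0.215, -0.152 and -0.162), so the numbers do not pair them. Members with few hits are limited by depth, and genes with near-equal counts are not separate measurements.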
